A study of Mus musculus with 4 samples.

Results

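The 10 genes described here make, bind, sense or remove retinoic acid. They were chosen by role, out of 21757 protein-coding genes, as the 3 retinoic acid receptors (Rara, Rarb, Rarg), the 3 retinaldehyde dehydrogenases that make retinoic acid (Aldh1a1, Aldh1a2, Aldh1a3), 2 cytochrome P450 enzymes that break it down (Cyp26a1, Cyp26b1) and 2 cellular retinoic acid binding proteins (Crabp1, Crabp2). Every H3K27ac peak interval in the body of such a gene or within 100 kb of its 5′ end was taken. This gave 85 of 40899 intervals in limb EGFP+ cells, 70 of 34360 in limb EGFP- cells, 78 of 36231 in trunk EGFP+ cells and 60 of 30716 in trunk EGFP- cells.

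H3K27ac, a histone acetylation of active promoters and enhancers, was measured by ChIP-seq in E14.5 mouse fetuses grown from G4 embryonic stem cells by tetraploid aggregation. All cells came from 1 homozygous clone in which EGFP with a minimal β-globin promoter was placed upstream of Col2a1, the gene of the main cartilage collagen. Limbs (stylo-, zeugo- and autopods) and trunks (neck to tail without the organs) were pooled and sorted into EGFP+ cells, which the reporter marks as Col2a1-expressing chondrocytes, and EGFP- cells, which are all other cells mixed. There was 1 library per population, so values carry no replicate error and no test was made between populations. Every limb library ran on 1 lane and every trunk library on another, so an effect of tissue and an effect of lane cannot be told apart. In the trunk EGFP- list the peaks are named as replicate 2, although the sample is labelled replicate 1. Promoter peaks were found at 11 of 11 chondrocyte markers in each EGFP+ list, against 6 in limb EGFP- and 4 in trunk EGFP- cells. In limb EGFP+, limb EGFP-, trunk EGFP+ and trunk EGFP- cells, promoter peaks were found at 2, 3, 3 and 3 of 4 connective tissue markers, at 2, 1, 1 and 2 of 4 neural markers, and at 0 or 1 gene per list of the muscle, endothelium, blood and skin markers, the muscle gene being Myog in limb EGFP+ cells. The part of cell mixture, lane or read length in any difference was not tested.

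Retinoic acid is made from vitamin A in steps, the last of which is the oxidation of retinaldehyde by the Aldh1a enzymes. It enters the nucleus with the help of Crabp2 and binds the receptors, which sit on DNA as partners of the RXR proteins and recruit corepressors without the ligand and coactivators with it. The Cyp26 enzymes hydroxylate retinoic acid and so clear it from a tissue. In the skeleton, retinoic acid holds back the differentiation of chondrocytes, the unliganded receptors act as repressors in cartilage, and excess retinoic acid disturbs limb and axial patterning.

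The sequences under the intervals that the results turn on are shown first, read from GRCm39 on the plus strand. The 4 windows of 300 bases surround the summit of the distal interval with the most reads at Cyp26b1 and at Rarg, both in limb EGFP+ cells, and at Crabp1 and Crabp2, both in limb EGFP- cells. Capitals mark the SOX-type letters ACAAAG or ACAATG on either strand, which were searched because SOX proteins are the main transcription factors of cartilage. The window at Cyp26b1 (chr6:84562194-84562493, intron of Cyp26b1) held none, and that at Rarg (chr15:102163654-102163953, intron of Rarg) held 2. The intergenic windows at Crabp1 (chr9:54710322-54710621) and Crabp2 (chr3:87867878-87868177) held 2 and 1.
Cyp26b1 intron: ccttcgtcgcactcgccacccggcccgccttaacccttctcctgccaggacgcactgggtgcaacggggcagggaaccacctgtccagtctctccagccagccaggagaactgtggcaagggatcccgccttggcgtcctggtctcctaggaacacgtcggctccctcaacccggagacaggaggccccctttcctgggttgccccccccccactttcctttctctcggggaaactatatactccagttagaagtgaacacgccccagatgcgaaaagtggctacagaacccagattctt
Rarg intron: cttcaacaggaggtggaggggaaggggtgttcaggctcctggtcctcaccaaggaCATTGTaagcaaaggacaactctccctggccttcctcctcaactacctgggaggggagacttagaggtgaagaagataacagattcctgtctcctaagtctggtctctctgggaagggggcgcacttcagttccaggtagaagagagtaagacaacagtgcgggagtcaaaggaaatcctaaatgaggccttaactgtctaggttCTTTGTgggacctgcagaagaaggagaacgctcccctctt
Crabp1 downstream: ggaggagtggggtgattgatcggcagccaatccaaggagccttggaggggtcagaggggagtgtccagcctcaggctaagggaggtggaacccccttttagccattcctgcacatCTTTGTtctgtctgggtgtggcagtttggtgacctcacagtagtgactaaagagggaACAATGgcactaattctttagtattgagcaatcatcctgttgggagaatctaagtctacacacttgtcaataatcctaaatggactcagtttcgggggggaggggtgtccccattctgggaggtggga
Crabp2 downstream: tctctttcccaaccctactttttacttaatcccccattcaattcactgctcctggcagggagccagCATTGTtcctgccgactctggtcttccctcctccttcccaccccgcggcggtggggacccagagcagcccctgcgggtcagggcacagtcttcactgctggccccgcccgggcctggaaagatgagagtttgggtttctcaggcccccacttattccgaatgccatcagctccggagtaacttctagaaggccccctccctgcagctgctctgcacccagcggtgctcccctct
These letters were found in 7 of 32 distal member intervals in limb EGFP+ cells, 11 of 29 in limb EGFP- cells, 8 of 30 in trunk EGFP+ cells and 6 of 18 in trunk EGFP- cells. Over all distal intervals of the lists the shares were 33.5%, 36.5%, 32.9% and 34.8%, so the members lay near the background and the matches are no more than a description.

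Receptors bind direct repeats of a hexamer, searched as the classical form AGGTCA, with GGGTCA counted as an equal, and likewise AGTTCA together with the fourth form, GGTTCA. A repeat was a pair of these on 1 strand with 1, 2 or 5 bases between, and both strands were searched in 300 bases around a summit or start site. None of the distal member intervals held such a repeat in any list, where 0.436% to 0.529% of all distal intervals did. Among the promoter intervals and start sites of the members, 3 repeats were found, all with a spacer of 5 bases. That form was held by 0.0594% of all start sites of protein-coding transcripts. Of all promoter intervals of the lists, 0.0789% to 0.116% held it. Of the members' promoter intervals, 1 of 22 in limb EGFP+ and 1 of 14 in trunk EGFP- cells held it. In limb EGFP- cells 0 of 13 did, and in trunk EGFP+ cells 0 of 20. The repeat at Cyp26a1 came from the start-site search alone. These counts are small, and enrichment was not tested. The 3 repeats are shown with the hexamers in capitals, each on the strand that reads as a repeat.
Rarb (chr14:5894234-5894250, plus strand): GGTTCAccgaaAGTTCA
Rara (chr11:98850834-98850850, plus strand): AGTTCAgcaagAGTTCA
Cyp26a1 (chr19:37686224-37686240, minus strand): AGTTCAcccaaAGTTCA
The Rarb repeat, in the untranslated region at an internal promoter, lay inside an interval of limb EGFP+ and of trunk EGFP- cells. It was 337 bp from the nearest interval of limb EGFP- cells and 22.3 kb from that of trunk EGFP+ cells. The Rara repeat, in an intron at an internal promoter, lay inside an interval of trunk EGFP- cells, 66 bp from an interval of trunk EGFP+ cells, 137 bp from that of limb EGFP+ cells and 3.87 kb from that of limb EGFP- cells. The Cyp26a1 repeat ends at the base before the start site, and the 150 bases before that site (chr19:37686091-37686240, plus strand, the repeat in capitals) read as follows.
Cyp26a1 promoter: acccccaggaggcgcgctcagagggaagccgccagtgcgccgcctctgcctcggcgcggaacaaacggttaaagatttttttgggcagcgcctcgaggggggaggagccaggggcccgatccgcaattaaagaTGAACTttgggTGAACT
No list had an interval over it. The nearest interval was 35.4 kb away in trunk EGFP+ cells and over 100 kb away in the other lists, at 123.6 kb in limb EGFP+, 123.8 kb in limb EGFP- and 123.7 kb in trunk EGFP- cells.

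A promoter interval was one that overlapped the stretch from 2 kb before to 500 bp after a start site of a protein-coding transcript of the gene, and a distal interval one outside these stretches of every protein-coding gene. A promoter interval was present at 6 of 10 members in limb EGFP+, 3 in limb EGFP-, 4 in trunk EGFP+ and 4 in trunk EGFP- cells. Of all protein-coding genes, 54.0%, 51.2%, 52.2% and 52.2% had such an interval in these lists. Rara, Rarg and Crabp2 had it in all 4 lists, as did 47.1% of genes. Aldh1a1, Aldh1a2, Cyp26a1 and Crabp1 had it in none, as did 41.7% of genes. Cyp26b1 had it in both EGFP+ lists and neither EGFP- list, a pattern shared by 314 genes (1.44%). Aldh1a3 had it in limb EGFP+ cells alone (358 genes, 1.65%) and Rarb in limb EGFP+ and trunk EGFP- cells (100 genes, 0.46%).

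**Figure D1:**
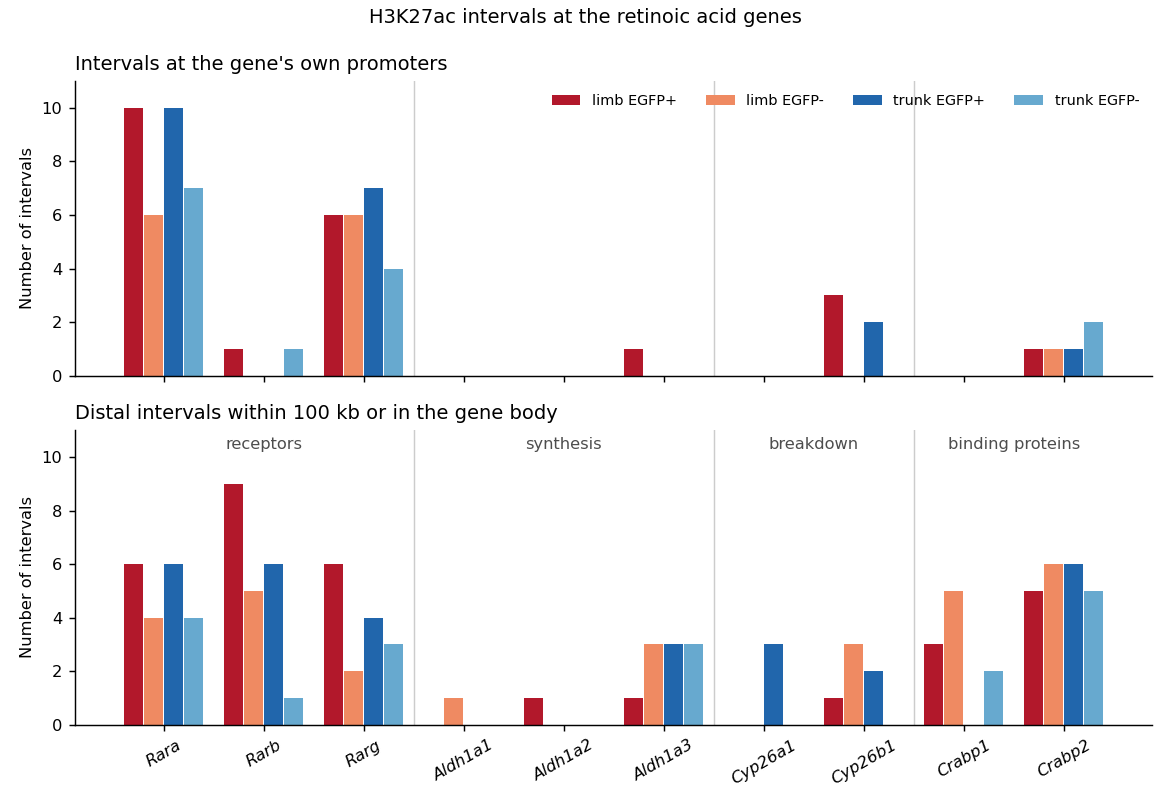
Number of H3K27ac intervals per gene in the 4 lists, at the gene's own promoters (top) and distal (bottom), with genes ordered by role and 1 library per bar. Rara and Rarg carry most promoter intervals, and Aldh1a1, Aldh1a2, Cyp26a1 and Crabp1 have no promoter bar.

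Distal intervals near the members numbered 32 in limb EGFP+, 29 in limb EGFP-, 30 in trunk EGFP+ and 18 in trunk EGFP- cells. The median over all protein-coding genes was 1 distal interval in each list, which Rara, Rarg and Crabp2 exceeded in every list, Rarb, Aldh1a3 and Crabp1 in 3, Cyp26b1 in 2 and Cyp26a1 in 1. The span searched at Rarb was 491 kb, against 200 kb at most members. Per 100 kb Rarb had 1.83, 1.02, 1.22 and 0.204 distal intervals in the 4 lists. The median gene had 0.5 per 100 kb in each. Within a tissue, the list of the other fraction left 71.9% of the members' distal intervals without an overlapping interval in limb EGFP+ cells (95% exact binomial interval 53.3% to 86.3%, background 68.5%) and 80.0% in trunk EGFP+ cells (61.4% to 92.3%, background 69.1%). In limb EGFP- cells the share was 69.0% (49.2% to 84.7%, background 56.6%) and in trunk EGFP- cells 61.1% (35.7% to 82.7%, background 57.3%). Each background share, taken over all distal intervals of the list, lay inside the counting interval of the members. These counting intervals treat the distal intervals as independent, although many share a locus, as do 9 at Rarb in limb EGFP+ cells. They therefore do not measure the spread between genes or libraries. Joined across the lists, distal intervals of the members that touched no promoter interval of any protein-coding gene formed 67 regions. EGFP+ lists alone called 32 of them (47.8%), EGFP- lists alone 21 (31.3%) and both fractions 14 (20.9%). Over all 42651 such regions of the lists the shares were 47.3%, 31.8% and 20.9%, so the members lay at the background.

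**Figure D2:**
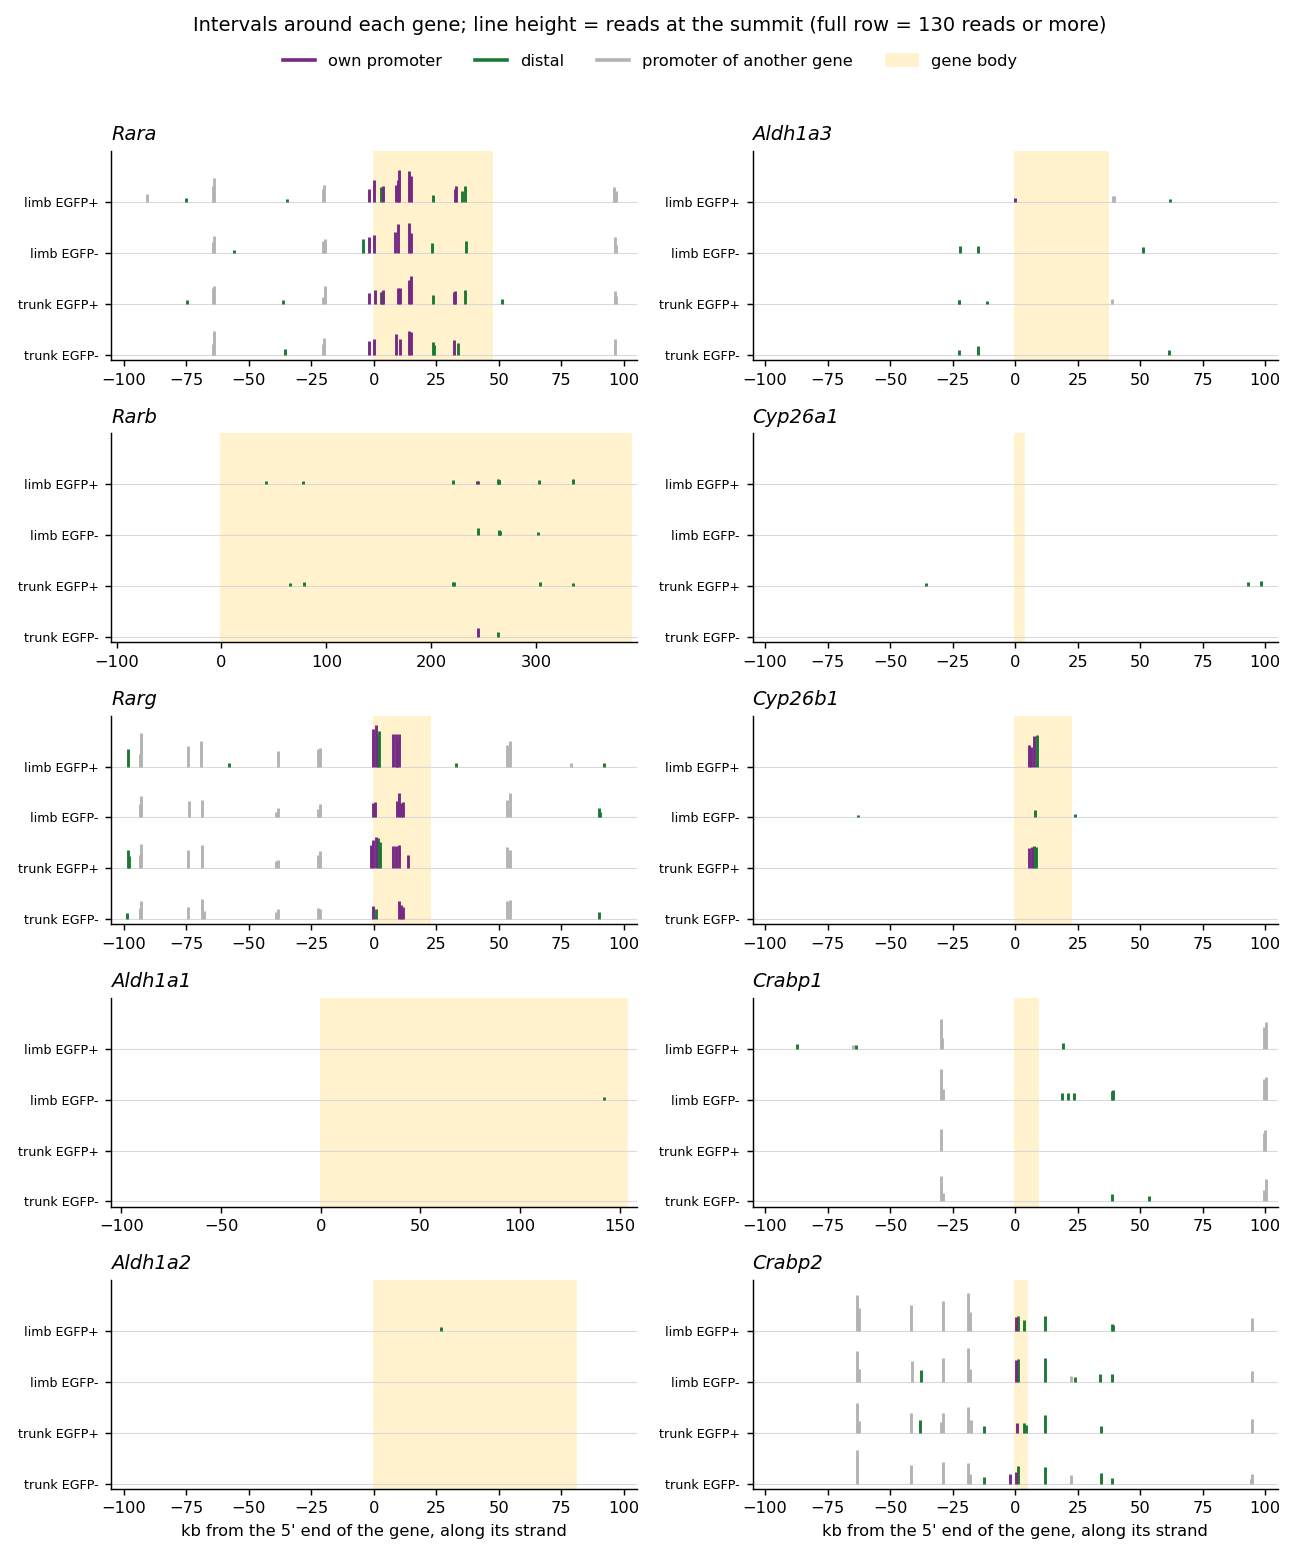
Position of each interval along the gene's strand (x axis, kb from the 5′ end) in the 4 lists (rows), with line height giving the reads at the summit and colour the class of the interval. Intervals crowd at the 5′ end and interior of Rara, Rarg and Cyp26b1, while the spans of Aldh1a1, Aldh1a2 and Cyp26a1 are almost empty.

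Rarg, a receptor known to be prominent in cartilage, showed the most summit reads of the 10 genes in both EGFP+ lists. In the EGFP- lists Rara stood higher, with 91 reads in limb and 71 in trunk against 75 and 56 at Rarg. The summit reads, that is the number of reads (extended to 200 bp) piled at the highest point of an interval, follow from the deposited fold and −log10 p. At the intronic side of the 5′ end (0.7 kb inside the gene) the highest summit held 126 reads in limb EGFP+ (95% exact Poisson interval 105 to 150), 45 in limb EGFP- (32.8 to 60.2), 95 in trunk EGFP+ (76.9 to 116) and 30 in trunk EGFP- cells (20.2 to 42.8). The trunk EGFP- interval there began past the promoter stretch and was therefore classed as distal. In both tissues the EGFP+ and EGFP- counting intervals did not overlap. How many other regions of the lists show such a gap was not counted, so it is a description and not a test. The medians over all intervals of the lists were 29, 26, 28 and 28 reads. The counting intervals, here and elsewhere, cover counting error only. On the other side of the start site, 0.4 kb before it, the reads were 114, 43, 85 and 39 in the same order, again without overlap within a tissue.

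The EGFP+ signal at Rarg went on into the gene. Distal intervals 2.1 kb inside it were called with 107 reads in limb EGFP+ cells (87.7 to 129) and 80 in trunk EGFP+ cells (63.4 to 99.6), and 1.5 kb inside it with 99 and 92 reads. Neither place had an interval in an EGFP- list. Rarg is transcribed from more than 1 promoter, and at the internal promoter about 10.0 kb inside the gene the fractions lay closer. The highest summit there held 97 reads in limb EGFP+ (78.7 to 118), 75 in limb EGFP- (59.0 to 94.0), 70 in trunk EGFP+ (54.6 to 88.4) and 56 in trunk EGFP- cells (42.3 to 72.7), and the counting intervals overlapped within each tissue. Intervals at 8.7 and 7.6 kb, still within internal promoter stretches, had 98 and 98 reads in limb EGFP+ and 67 and 68 in trunk EGFP+ cells and none in EGFP- lists. Intervals at 10.7 and 10.8 kb appeared only in limb EGFP- (43 reads) and trunk EGFP- cells (42 reads). The same held for those at 11.5 and 11.7 kb (46 and 37 reads). The missing EGFP+ calls there do not show fewer reads. The local background, against which a summit is scored, was 43.1 to 50.3 reads at the limb EGFP+ intervals of the gene body. At those of trunk EGFP+ cells it was 20.6 to 37.9 reads.

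MACS2 scores a summit against a local background, here taken from the same library because no control is named. Over the body of Rarg the median of this local background was 43.9 reads in limb EGFP+, 21.7 in limb EGFP-, 31.6 in trunk EGFP+ and 16.9 in trunk EGFP- cells, where the medians of whole lists were 4.60 to 5.30 reads. The strongest Rarg interval thus stood in the top 0.328% of the limb EGFP+ list by summit reads, but in the top 25.9% by −log10 p. In trunk EGFP+ cells the positions were 0.880% and 28.6%. The deposited fold at this place, which divides by that background, ran the other way from the reads, at 2.71 in limb EGFP+ and 3.37 in limb EGFP- cells and at 2.70 in trunk EGFP+ and 3.02 in trunk EGFP- cells. For the EGFP- lists the interval of best rank by −log10 p was the internal one, at 27.5% in limb EGFP- (6.58% by reads) and 37.1% in trunk EGFP- cells (14.8% by reads).

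Further from Rarg, 98.4 kb before its start, an intergenic region was called in limb EGFP+ (52 reads, 1572 bp wide), trunk EGFP+ (56 reads) and trunk EGFP- cells (18 reads). In trunk EGFP+ cells its position of 24.1% made it 1 of the 2 distal member intervals in the upper 25% of that list. It lay 5.1 kb from the start of Aaas, and in limb EGFP+ cells it ran 63 bp into the 3′ end of Sp7, the gene of an osteoblast transcription factor that was singled out after the values were seen. Nearness to Rarg is therefore only a distance. At 89.9 kb past the start on the other side, a region was called in limb EGFP- (28 reads) and trunk EGFP- cells (22 reads) only. In all, Rarg had 6, 2, 4 and 3 distal intervals in limb EGFP+, limb EGFP-, trunk EGFP+ and trunk EGFP- cells.

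Rara, the most widely expressed of the receptors, carried promoter intervals throughout its body in all 4 lists, numbering 10, 6, 10 and 7 in the same order over 11 start sites. At the promoter 14.0 kb inside the gene the summits held 94 (76.0 to 115), 91 (73.3 to 112), 73 (57.2 to 91.8) and 71 reads (55.5 to 89.6), with counting intervals that overlapped within each tissue. At the 5′ end the reads were 66, 53, 43 and 49. The most-read promoter interval, 10.1 kb inside the gene in limb EGFP+ cells with 96 reads (77.8 to 117), was met by 48 reads in trunk EGFP+ and 47 in trunk EGFP- cells and by no interval in limb EGFP- cells. Just before it, at 9.6 kb, limb EGFP- cells had an interval with 87 reads (69.7 to 107), and limb EGFP+ cells one with 67 (51.9 to 85.1). The local background was 34.1 reads at the limb EGFP+ interval at 10.1 kb and 28.8 at the limb EGFP- interval at 9.6 kb. The missing limb EGFP- call does not show fewer reads. An intron interval at 23.1 to 23.6 kb was called in all 4 lists with 20, 30, 26 and 38 reads. Another at 36.3 to 36.7 kb was called in limb EGFP+, limb EGFP- and trunk EGFP+ cells with 48, 36 and 43 reads.

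Rarb, itself known as a target of the receptors, had low signal. Its body spans 391 kb, and no list had an interval at its 5′ end. At the internal promoter 244 kb inside the gene, where the direct repeat shown above lies, the highest summits held 11 reads in limb EGFP+ (5.49 to 19.7), 21 in limb EGFP- (13.0 to 32.1) and 26 in trunk EGFP- cells (17.0 to 38.1), and trunk EGFP+ cells had no interval. The limb EGFP- interval, and the stronger of the limb EGFP+ intervals, began more than 500 bp past the start site used here and so counted as distal, although start sites of other transcripts cover them. A promoter interval in EGFP- and none in EGFP+ cells of the trunk, as at Rarb, was seen at 3.29% of genes. The trunk EGFP- interval was the widest, at 1277 bp against 327 bp in limb EGFP- cells. Rarb had 9, 5, 6 and 1 distal intervals, all in its own introns or the exon by that promoter. Its distal summits held 9 to 17 reads in the EGFP+ lists. The lowest summit of these lists held 7 reads, and the median summit 29 in limb EGFP+ and 28 in trunk EGFP+ cells.

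**Figure D3:**
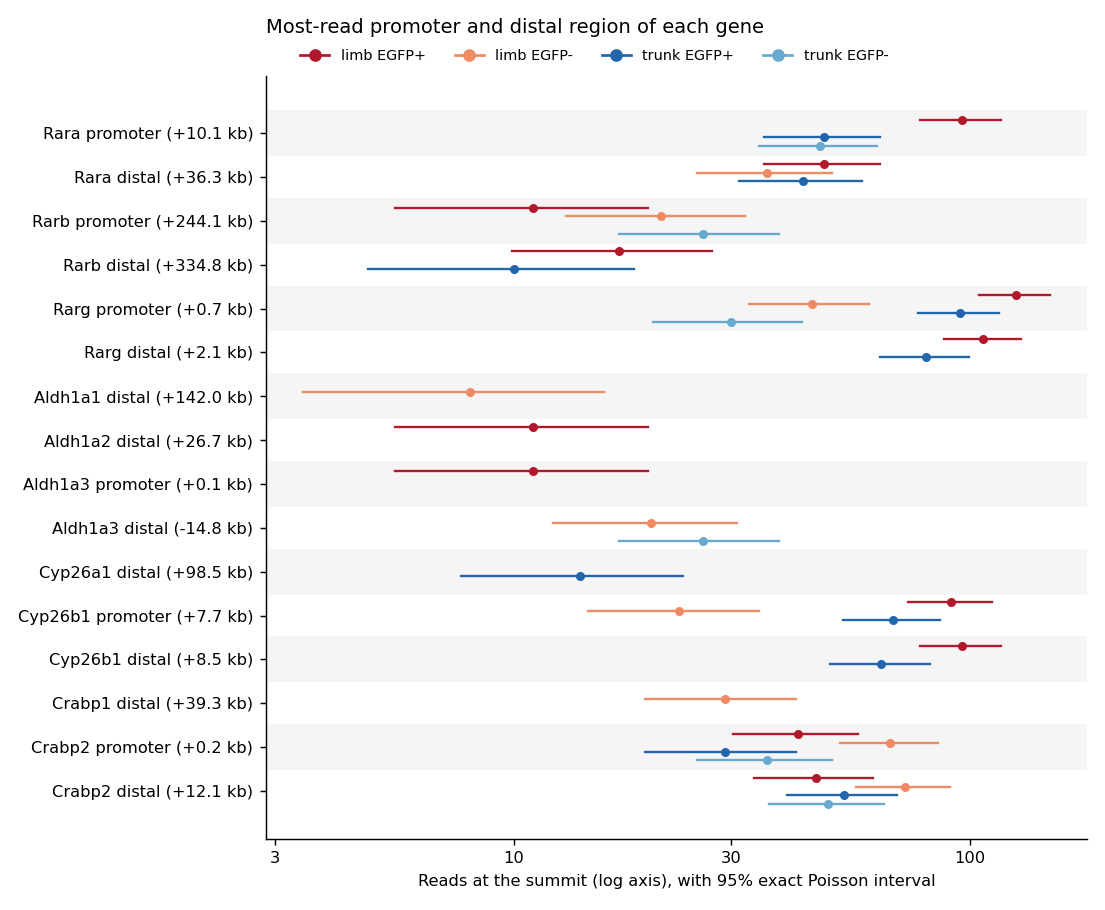
Reads at the summit (log axis) with 95% exact Poisson intervals in the 4 lists, for the most-read promoter region and the most-read distal region of each gene, placed by kb from the 5′ end; a missing point means that no interval was called. The Rarg promoter region holds 126 and 95 reads in the EGFP+ lists and 45 and 30 in the EGFP- lists, and the Crabp2 promoter region has its highest value, 67 reads, in limb EGFP- cells.

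Of the genes of retinoic acid synthesis, Aldh1a1 and Aldh1a2 were nearly bare. Aldh1a1 had 1 interval in all 4 lists together, in an intron 142.0 kb inside the gene in limb EGFP- cells with 8 reads. Aldh1a2, the main source of retinoic acid in the early trunk mesoderm, also had 1, in an intron 26.7 kb inside the gene in limb EGFP+ cells with 11 reads. Both summits lie near the lowest called in these lists, so a peak that was just missed in the other lists cannot be told from its absence. Each of these genes thus had a distal interval in 1 list, while 21.4% of all genes had none in any list.

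Aldh1a3 had a promoter interval in limb EGFP+ cells alone, with 11 reads (5.49 to 19.7), which was lost with a −log10 q of at least 5. EGFP+-only promoter intervals in the limb were seen at 4.79% of genes. Its distal intervals numbered 1, 3, 3 and 3. A region 14.8 kb before the gene was called in both EGFP- lists, with 20 reads in limb EGFP- (12.2 to 30.9) and 26 in trunk EGFP- cells (17.0 to 38.1), and in neither EGFP+ list. Its positions by −log10 p were 57.9% and 48.0%. A region 21.9 to 22.3 kb before the gene was called with 21 reads in limb EGFP-, 13 in trunk EGFP+ and 16 in trunk EGFP- cells. The best-ranked distal interval of Aldh1a3 in limb EGFP- cells, with 19 reads and a position of 42.9%, lay in an intron of the neighbour Lrrk1. The 3 synthesis genes together had 2, 4, 3 and 3 distal intervals, and 1 promoter interval in any list.

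The genes of breakdown differed from each other. Cyp26b1, the family member best known from limb buds and cartilage, had promoter intervals in EGFP+ cells only, 3 in limb and 2 in trunk. A promoter interval in EGFP+ and none in EGFP- cells was seen at 4.79% of genes in the limb and 3.19% in the trunk. These intervals were not at the 5′ end, where no list had one, but at internal start sites 5.6 to 7.7 kb inside the gene. The summit 5.7 kb inside held 65 reads in limb EGFP+ (50.2 to 82.8) and 62 in trunk EGFP+ cells (47.5 to 79.5). That at 7.7 kb held 91 reads in limb EGFP+ (73.3 to 112) and 68 in trunk EGFP+ cells (52.8 to 86.2, an interval classed as distal there).

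The intron window of Cyp26b1 printed above, 8.5 kb inside the gene, was called in limb EGFP+ cells with 96 reads (77.8 to 117) and in trunk EGFP+ cells with 64 (49.3 to 81.7) and in neither EGFP- list. By reads it stood in the top 3.88% and 10.0% of the lists, and by −log10 p in the top 35.9% and 55.5%. Limb EGFP- cells had an interval between these places, 8.0 kb inside the gene, with 23 reads (14.6 to 34.5), which overlapped the limb EGFP+ promoter interval. Trunk EGFP- cells had no interval at all within the span searched around Cyp26b1. The local background over the gene had a median of 34.6 reads in limb EGFP+ and 26.3 in trunk EGFP+ cells, and was 6.24 reads at the limb EGFP- interval. The other limb EGFP- intervals, at 62.9 kb before and 24.1 kb past the start, had 7 and 11 reads.

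Cyp26a1, known as a direct target of the receptors, had no promoter interval despite the repeat at its start site. Its distal intervals were found in trunk EGFP+ cells only, 3 with 8, 13 and 14 reads, at 35.5 kb before and 93.0 and 98.5 kb past the start. The neighbour Cyp26c1 shares this span, and the interval 35.5 kb before the start lay in an intron of another gene, Exoc6. Genes with more distal intervals in EGFP+ than in EGFP- cells made up 36.4% of genes in the trunk and 35.5% in the limb, so the direction alone is common.

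The binding proteins also differed. Crabp2 had a promoter interval in all 4 lists, although with a −log10 q of at least 5 or the 20000 intervals of highest −log10 p it was lost in both trunk lists. Its reads were higher in the EGFP- list of each tissue. The summit at 0.2 kb held 42 reads in limb EGFP+ (30.3 to 56.8), 67 in limb EGFP- (51.9 to 85.1), 29 in trunk EGFP+ (19.4 to 41.6) and 36 in trunk EGFP- cells (25.2 to 49.8). The counting intervals of the fractions overlapped in both tissues. A distal interval 1.1 kb inside the gene held 45 reads in limb EGFP+, 69 in limb EGFP- and 52 in trunk EGFP- cells and was not called in trunk EGFP+ cells. Intervals at 3.7 kb were called in the EGFP+ lists only, with 33 and 29 reads.

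The region 12.1 kb past the start of Crabp2, printed above, was called in all 4 lists, with 46 (33.7 to 61.4), 72 (56.3 to 90.7), 53 (39.7 to 69.3) and 49 reads (36.3 to 64.8). It stood in the top 19.6%, 7.80%, 10.5% and 24.4% of the lists by −log10 p and was the best-ranked distal interval of the 10 genes in limb EGFP+, limb EGFP-, trunk EGFP+ and trunk EGFP- cells alike. It measured 669, 891, 750 and 939 bp, where the median distal interval had 331, 294, 324 and 303 bp. It is intergenic and lies closer to the start of Nes, at 10.4 kb, than to that of Crabp2. It was the only distal member interval in the upper 25% of the limb EGFP+, limb EGFP- and trunk EGFP- lists, which gives 1 of 32, 1 of 29 and 1 of 18, beside 2 of 30 in trunk EGFP+ cells. Over all distal intervals, 5.54%, 6.21%, 5.12% and 5.27% were in the upper 25% of these lists.

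Crabp1, whose product is thought to lead retinoic acid to its breakdown, had no promoter interval and 3, 5, 0 and 2 distal intervals. Those past the gene, at 38.7 to 38.9 kb, were called in limb EGFP- (27 reads, 17.8 to 39.3) and trunk EGFP- cells (22 reads, 13.8 to 33.3). The adjoining interval at 39.3 kb, whose window is printed above, had 29 reads in limb EGFP- cells only (19.4 to 41.6). Neither EGFP+ list had an interval at these places. In the limb EGFP+ list the best-ranked interval, with 15 reads and a position of 47.0%, lay 87.1 kb before the gene and 14.9 kb from the start of Acsbg1. Nearer the gene, a limb EGFP- interval at 18.7 kb (20 reads) and a limb EGFP+ interval at 19.1 kb (16 reads) lay side by side without overlap. Fewer distal intervals in EGFP+ than in EGFP- cells were counted at 25% of genes in the limb and 21.9% in the trunk.

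Promoter intervals of the members stood nearer to the top by reads than by −log10 p. This was so for 21 of 22 in limb EGFP+, 13 of 13 in limb EGFP-, 20 of 20 in trunk EGFP+ and 13 of 14 in trunk EGFP- cells, where it held for 41.2%, 44.2%, 42.7% and 45.5% of all promoter intervals. Most of them belong to Rara and Rarg, so they share a locus and are not independent. Their median positions were 44.2%, 47.2%, 56.5% and 53.2% by −log10 p and 15.6%, 17.7%, 16.3% and 26.1% by reads, beside list medians for promoter intervals of 25.2% to 30.1% by −log10 p. They were also narrow, with median widths of 386, 385, 359.5 and 451.5 bp, where all promoter intervals had medians of 583, 505, 557 and 519 bp. Distal intervals of the members had median positions of 69.0%, 65.7%, 73.8% and 70.5% by −log10 p, close to the list medians of 67.2%, 68.8%, 68.3% and 71.2%.

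**Figure D4:**
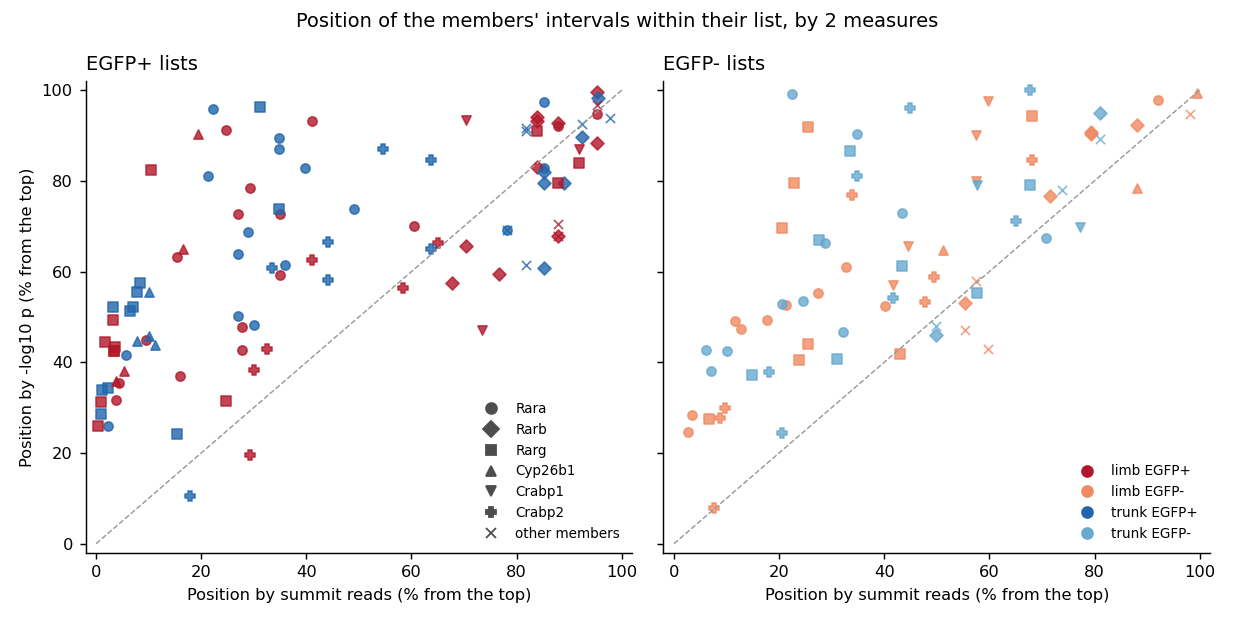
Position of each promoter and distal interval of the 10 genes in its list, by summit reads (x axis) and by −log10 p (y axis), in percent from the top, for the EGFP+ lists (left) and EGFP- lists (right); the dashed line marks equal positions. Intervals in the bodies of Rarg and Cyp26b1 in the EGFP+ lists lie far above the line, nearly all below 20% by reads and mostly above 30% by −log10 p.

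The other genes of the pathway were described by a list of 23 genes chosen by role. A promoter interval was found at 14, 14, 15 and 15 of them in limb EGFP+, limb EGFP-, trunk EGFP+ and trunk EGFP- cells, where 54.0%, 51.2%, 52.2% and 52.2% of all genes had one, and the median number of distal intervals was 1, 2, 2 and 2. Dhrs3, an enzyme that turns retinaldehyde back into retinol, had promoter intervals in EGFP+ cells only, with 87 reads in limb and 53 in trunk. Rbp4, the retinol carrier of the blood, had the same pattern, met at 1.44% of genes, with 20 and 18 reads. Stra6, the membrane receptor that takes up retinol, had the opposite pattern, with 26 reads in limb EGFP- and 18 in trunk EGFP- cells and none in EGFP+ lists (0.777% of genes). Rxrg, a partner of the receptors, had an interval in trunk EGFP- cells only (1.22% of genes), with 13 reads.

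Among known targets of the receptors, Tgm2, Hoxb1 and Stra8 had no promoter interval in any list, nor had Lrat, which stores retinol as esters, and Cyp26c1, the third enzyme of breakdown. Tgm2, a transglutaminase also made by maturing chondrocytes, had 12, 3, 16 and 5 distal intervals in limb EGFP+, limb EGFP-, trunk EGFP+ and trunk EGFP- cells. Hoxb1 had 0, 8, 7 and 15 in the same order, the most of the 23 genes in trunk EGFP- cells.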

How the data were processed

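H3K27ac ChIP-seq was taken from 4 peak lists, 1 library each. The authors sampled equal numbers of reads, trimmed them with CutAdapt 1.18, mapped them with Bowtie2 2.3.5.1 (GRCm39), removed poorly mapped reads and called peaks per library with MACS2 2.2.7.1 with reads extended to 200 bp. No control library and no q threshold are named in the sources used here. In the deposited lists the score is the whole-number part of 10 times the −log10 q. The deposited fold is a ratio, summit pileup over local background, and the deposited −log10 p and −log10 q come from the authors' MACS2 run.

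Summits of 1 start and end were joined into intervals. Start sites (67388) came from GENCODE vM39, which is on the same build. Distances were measured from the 5′ end of the gene. Summit reads and local background were recovered from fold and −log10 p for 100% of summits. The depth in reads per library was not used, and the lowest summits of the lists held 7, 7, 7 and 8 reads. Intervals overlapped when they shared at least 1 bp. Positions within a list were by the highest −log10 p of an interval, and positions by summit reads were added after the values were seen.

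The members and lists were chosen with earlier results of these data known. All 10 members were named, with their best-ranked and most-read intervals. Of the 23 other pathway genes, those without a promoter interval in at least 1 list and those with the most distal intervals were named, and some of them are not reported here. With 1 library per population no test was made. The alternatives were a −log10 q of at least 5, only the top 20000 intervals by −log10 p in every list, fold values from 4 up, a window of 50 kb, 100 kb from any start site, promoters of 1 kb on each side, overlap of 50%, an opposite interval within 1 kb, ranking by fold, and 500 bases for the repeats. Start sites of all 168697 transcript starts were added after the values were seen. The calls were tested on simulated data. The tools were scipy 1.17.1, pandas 2.3.3, pysam 0.24.0, matplotlib 3.10.9 and numpy 2.4.6 under Python 3.11.15.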

Additional observations from a re-analysis of the deposited data

Results flagged for a closer look

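The EGFP+ and EGFP- lists differed in opposite directions in limb and trunk at 3 genes. These differences rest on 1 library each and were not tested. At Rarb the limb had a promoter interval in EGFP+ and not in EGFP- cells (a difference of 1). The trunk had the reverse (a difference of -1). The limb EGFP+ interval that makes this call held 9 reads and was lost with a −log10 q of at least 5. At the same internal promoter, limb EGFP- cells had an interval with 21 reads that was classed as distal. With promoters of 1 kb on each side both limb lists had a promoter interval, so the limb difference rests on the promoter stretch used. Cyp26b1 had 2 fewer distal intervals in EGFP+ than in EGFP- cells in the limb (-2) and 2 more in the trunk (2), where the limb EGFP- intervals held 7, 11 and 23 reads. Crabp2 had a difference of -1 distal interval in the limb and 1 in the trunk.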

How the results depend on the processing

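No paired analysis was possible because no result comes from a test and each population has 1 library, which also means that no replicate could be left out. A −log10 q of at least 5 left 14, 13, 11 and 7 distal intervals near the members in limb EGFP+, limb EGFP-, trunk EGFP+ and trunk EGFP- cells, against 32, 29, 30 and 18, and the 20000 intervals of highest −log10 p left 7, 11, 6 and 7. A fold of at least 4 left 10, 6, 6 and 2 distal intervals, and a promoter interval at 1, 0, 0 and 1 members, which drops Rara, Rarg, Cyp26b1 and Crabp2 from each list. These filters keep fewer intervals by construction. The share of distal intervals in limb EGFP+ cells with no opposite interval was 90.0% at a fold of at least 4 and 53.1% when an opposite interval within 1 kb counted. The other 58 alternative values of these counts and shares stayed within 1.5 times the count or within the counting interval of the share. With a −log10 q of at least 5, and with the 20000 intervals of highest −log10 p, Crabp2 had no promoter interval in either trunk list and Rarb and Aldh1a3 had none in limb EGFP+ cells. The EGFP+ minus EGFP- number of distal intervals of a gene was the same in 62 of 120 values, moved in 49, of which 21 went to 0, and changed its sign in 9. With a −log10 q of at least 5 it was -2 for Rara, 1 for Cyp26b1 and 1 for Crabp2 in the limb. With the 20000 intervals of highest −log10 p it was -1 for Rara, -1 for Rarb and 1 for Cyp26b1 in the limb and -2 for Crabp2 in the trunk. At a fold of at least 4 it was 1 for Crabp1 and 1 for Crabp2 in the limb. So the difference in number at Cyp26b1 in the limb depends on weak EGFP- intervals. By summit reads, 4, 2, 6 and 2 distal member intervals were in the upper 25%, and by fold 2, 2, 1 and 0. With promoters of 1 kb on each side, or start sites of all transcripts, Rarb also had a promoter interval in limb EGFP- cells. In 500 bases in place of 300, repeats were found at 2, 0, 2 and 1 promoter intervals of the members.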
